A study of Mus musculus with 12 samples.

Results

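Ephrins, semaphorins, Slits and netrins are the cues, and Eph receptors, plexins, neuropilins, Robos and Unc5 proteins the receptors, that steer migrating cells and growing axons. Their genes were taken by symbol: every protein-coding gene whose name starts with Epha, Ephb, Efna, Efnb, Plxn or Unc5, every Sema, Slit, Robo or Ntn gene followed by a number, and Nrp1 and Nrp2. This gave 69 of the 46517 genes in the count tables, namely 14 Eph receptors, 8 ephrins, 20 semaphorins, 9 plexins, 2 neuropilins, 3 Slits, 4 Robos, 3 netrins and 6 genes of the Unc5 prefix. The prefix also caught Unc50, which encodes a Golgi protein and is no netrin receptor. The 3 antisense RNAs of Plxna4 matched the prefix but do not code for protein and were left out.

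Polyadenylated RNA was sequenced in 12 samples of a C57BL/6 mouse embryonic stem cell (ESC) reporter line, in 4 groups of 3. The groups were wild-type (WT) and Meteor knockout (KO) cells at day 0, when they are undifferentiated ESCs on mouse embryonic fibroblast feeders, and WT and KO cells at day 3 of cardiac differentiation in hanging drops. Every group carries the same EGFP reporter cassette at the start of the endogenous Eomes gene, so no group is free of that allele. Meteor is the study's name for an enhancer upstream of Eomes from which a long noncoding RNA is made. The KO cells carry a CRISPR-Cas9 nickase deletion of that enhancer, with the start site of the RNA. They descend from picked clones, and the labels do not say which clone was sequenced, so effects of the deletion and of the clone cannot be told apart. The comparisons ask how these guidance genes respond to loss of the locus before and during mesendoderm formation, and how they change over the 3 days in each genotype.

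As background, guidance cues act over short or long range. Ephrins are bound to the cell surface and signal through Eph receptor tyrosine kinases on touching neighbours, and both partners can signal into their own cell. Semaphorins signal through plexins, and most secreted class 3 semaphorins need a neuropilin as the ligand-binding co-receptor. Slits bind Robo receptors, and netrins bind Dcc, Neo1 and the Unc5 receptors. Although named for axons, all these systems also act in the early embryo, where they take part in gastrulation movements, boundary formation, neural crest migration and blood vessel growth.

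Between 17455927 and 23910943 reads per library were assigned to genes, with a median of 19651103.5. The annotated genes of the deleted locus, 2610509F24Rik and Platr11, had 11 to 112 reads in each WT library and 0 or 1 read in each KO library. The labels describe pluripotent cells at day 0. Levels are given in CPM (counts per 1000000 assigned reads, with library sizes scaled by the trimmed mean of M-values, TMM). At day 0 the summed level of 6 pluripotency genes was 2616 to 3114 CPM in WT and 3466 to 3851 CPM in KO. The day 0 sum of 8 primitive streak and mesendoderm genes was 71.9, 42.7 and 166 CPM in WT and 52.5 to 68.8 CPM in KO. Eomes made up most of the KO sum and was not called (means of 51.3 CPM in WT and 55.8 CPM in KO). T and Lhx1 were called lower in KO at day 0 (29.5 and 5.13 CPM in WT, 0.53 and 0.03 CPM in KO). T read 4.64, 6.42 and 77.4 CPM in WT. Replicate 3 was also the highest WT day 0 library for Epha1, Epha7, Sema6a, Slit3, Efnb2 and Efna5, among others. Summed over 8 primitive streak and mesendoderm genes, day 3 levels were 925 to 1845 CPM in WT and 77.2 to 151 CPM in KO. Summed over 5 neuroectoderm genes they were 156 to 179 CPM in WT and 253 to 279 CPM in KO. Otx2 made up most of that sum (166 CPM in WT and 246 CPM in KO on average) and was not called (adjusted p = 0.0537), while Neurog3, Pax6 and Sox1 were called higher in KO at means of at most 5.67 CPM. At day 0 the neuroectoderm sum went the other way, with 58.8 to 87.2 CPM in WT and 36.6 to 56.5 CPM in KO. Otx2 and Pax6 were called lower in KO at day 0 (log2 fold change -3.21 and -1.65), and the other neuroectoderm genes were not called. The part of these differences in makeup in the day 0 and day 3 results was not tested. In bulk RNA, fewer cells expressing a gene and less RNA per cell cannot be told apart. Among the WT day 3 libraries, replicate 3 had the lowest mesendoderm sum (925 CPM) and the lowest pluripotency sum (596 CPM, against 1109 and 1119), and its sum over 5 extraembryonic endoderm genes was 98.7 CPM, against 31.0 and 33.5. Summed over 10 fibroblast genes, day 0 levels in replicates 1, 2 and 3 were 81.9, 250.3 and 126 CPM in WT and 121, 332 and 206 CPM in KO, and day 3 levels were 39.99 to 81.3 CPM.

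Compared per kilobase of exon (RPKM), a scale that allows levels of unlike genes to be set side by side, the members ranged widely. In WT cells 34 members reached 1 RPKM at day 0 and 44 at day 3, and in KO cells 33 and 38 did. The highest mean over all 12 libraries belonged to Epha2 (28.3 RPKM) among Eph receptors, Efnb2 (8.90 RPKM) among ephrins, Sema4b (17.4 RPKM) among semaphorins, Plxna1 (21.2 RPKM) among plexins and Nrp2 (2.54 RPKM) among neuropilins. Among the remaining families it belonged to Slit3 (5.82 RPKM), Robo1 (3.96 RPKM), Ntn1 (7.60 RPKM) and Unc5b (18.4 RPKM). The leading member was Epha2 at day 0 in both genotypes (31.0 RPKM in WT and 42.8 RPKM in KO). At day 3 it was Epha1 in WT (54.9 RPKM) and Unc5b in KO (32.3 RPKM).

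Summed over family members, the neuropilins, netrins and Slits had the largest ratios of WT to KO at day 3 (51.3, 9.77 and 5.79), and the Eph receptors the largest difference in RPKM (120.0 against 67.3). The neuropilin sum was 2.69, 3.76 and 24.0 RPKM in WT and 0.178, 0.177 and 0.237 RPKM in KO. The netrin sum was 16.0, 16.6 and 5.91 RPKM in WT and 1.02, 1.74 and 1.16 RPKM in KO. The Slit sum was 19.7, 22.0 and 16.9 RPKM in WT and 4.21, 2.17 and 3.73 RPKM in KO. No KO library reached a WT library in these 3 families, nor in the Eph receptors (85.0 to 138 RPKM in WT, 62.9 to 74.1 RPKM in KO) or the ephrins (47.1 to 70.6 and 33.6 to 43.1 RPKM). Plexin sums overlapped (54.9 to 73.4 RPKM in WT, 53.5 to 65.5 RPKM in KO), and so did those of the semaphorins (59.8 to 73.0 and 60.5 to 65.7 RPKM). The sum of the Unc5 prefix was 26.4 RPKM in WT and 25.1 RPKM in KO at day 0, of which Unc50 held 16.7 and 18.8 RPKM. These family sums were not tested.

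**Figure D1:**
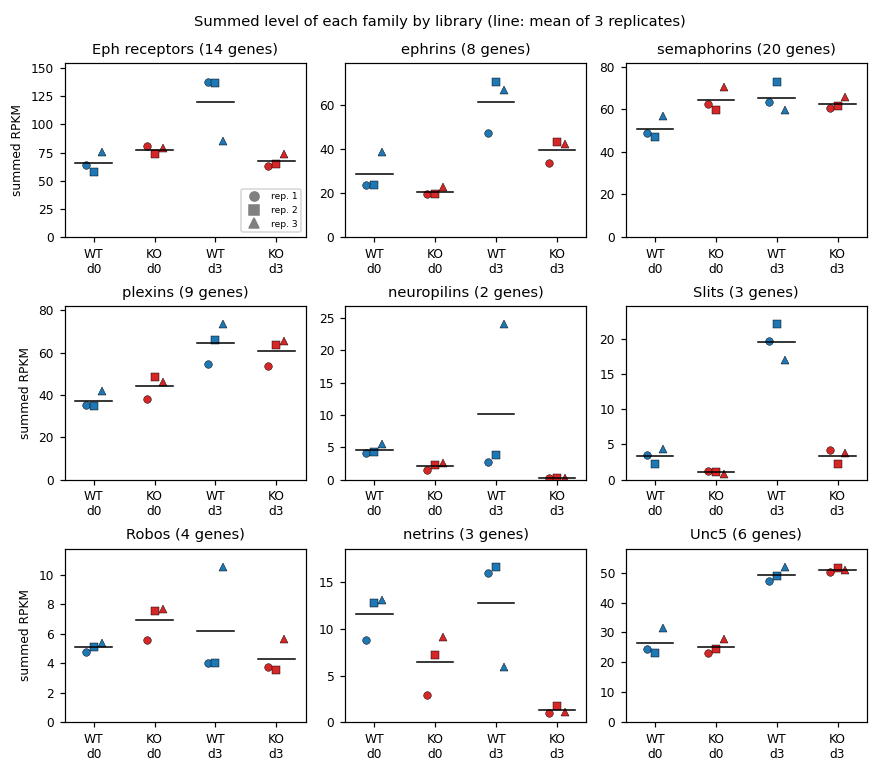
Summed level of each family in RPKM (vertical axis, from 0) in WT (blue) and Meteor KO (red) libraries at days 0 and 3, with 1 symbol per replicate and a line at the mean of 3. At day 3 the neuropilin, netrin, Slit, Eph receptor and ephrin sums were lower in every KO library than in every WT library, and the plexin and semaphorin sums overlapped.

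Genes that exceeded 1 CPM in some library were tested, 15673 in all, and 64 members were among them. The members left out, Epha3, Epha5, Epha6, Ntn5 and Plxnb3, did not exceed 0.60 CPM in any library. A gene is called changed below at an adjusted p-value under 0.05, from the quasi-likelihood test of edgeR after Benjamini-Hochberg adjustment across the tested genes. Fold changes are KO over WT, or day 3 over day 0, on the log2 scale with standard error (SE), and n = 3 per group throughout.

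At day 0, 19 of the 64 tested members differed between genotypes, 5 higher and 14 lower in KO, or 29.7% of them where 20.4% of all tested genes were called (9.56% higher and 10.9% lower). At day 0, 12 of the calls were also over 2-fold, 2 upward and 10 downward, against 8.92% of all tested genes. At day 3 the number was 38, with 7 higher and 31 lower, or 59.4% of the members against 30.9% of all tested genes. Among all tested genes at day 3, 14.3% were called higher and 16.7% lower. The median log2 fold change of the members was -0.22 at day 0 and -0.65 at day 3, against -0.01 and 0.0 over all tested genes. Both comparisons use separate libraries. Of the calls at day 3, 28 were over 2-fold, 2 upward and 26 downward, against 13.2% of all tested genes. Robo2, Sema3g and Unc5d, among the lower ones, exceeded 1 CPM only in WT day 3 libraries. The filter thus let them in only as genes high in that group. The counts depended on the fit. The pairing of the libraries would have the replicate number blocked within each day. At day 0 that block called 32 members (12 higher, 20 lower) and 34.8% of all genes. At day 3 it called 47 members (10 higher, 37 lower). The share of all genes that it called at day 3 is not given here.

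**Figure D2:**
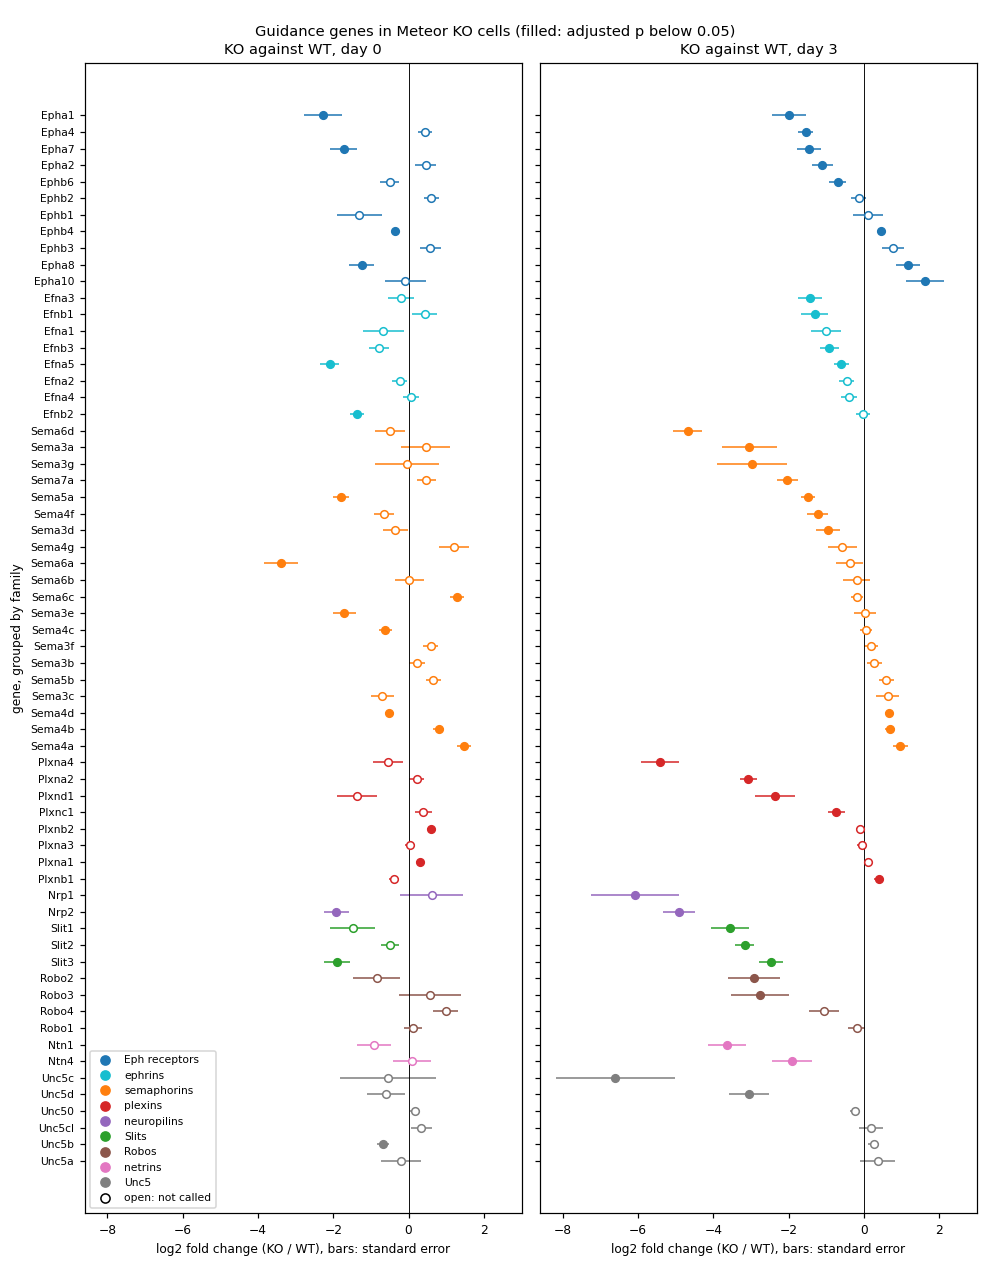
Log2 fold change of KO against WT (horizontal axis, bars are standard errors) for the 64 tested guidance genes by family, at day 0 on the left and at day 3 on the right, with filled symbols for an adjusted p-value below 0.05. At day 0 the largest decrease was that of Sema6a (-3.39), and at day 3 those of Unc5c (-6.60) and Nrp1 (-6.08).

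A set of 6 members was lower in KO at both days, namely Efna5, Epha1, Epha7, Nrp2, Sema5a and Slit3. Sema4a and Sema4b were higher at both. Epha8, Ephb4 and Sema4d were lower in KO at day 0 and higher at day 3, and no member was called the opposite way. With the replicate number blocked within each day, Epha4, Robo4 and Sema4g were called higher in KO at day 0 and lower at day 3. Ephb3 and Sema5b were then called higher in KO on both days. Of the others, 25 were called lower at day 3 without a call at day 0, and 5 (Efnb2, Sema3e, Sema4c, Sema6a and Unc5b) were called lower at day 0 without a call at day 3. With that block Efnb3, Ntn1, Plxnd1, Slit1 and Slit2 were called lower at day 0 as well, and Unc5b was called at day 3.

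Of the 11 Eph receptors tested, 4 were called lower and none higher in KO at day 0, and at day 3 5 were lower and 3 higher. Epha1 read 15.9, 15.9 and 42.2 CPM in WT and 6.44, 3.53 and 5.41 CPM in KO at day 0. By day 3 the level was 281, 263 and 102 CPM in WT and 70.2, 43.1 and 52.5 CPM in KO. It thus rose over the 3 days in both genotypes, from a lower start and to a lower end in KO, and the groups did not overlap on either day. Its log2 fold change was -2.28 (SE 0.50, adjusted p = 0.0109) at day 0 and -2.0 (SE 0.45, adjusted p = 0.00827) at day 3, and the day 0 call was lost without KO replicate 2 or KO replicate 3. Epha7, a receptor for A-type ephrins, had 5.95, 6.52 and 12.9 CPM in WT against 3.47, 2.26 and 1.94 CPM in KO at day 0. Its groups did not overlap on either day (log2 fold change -1.72 and -1.45, SE 0.36 and 0.32).

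Epha2 and Epha4, the 2 most abundant A-type receptors of undifferentiated cells, were called at day 3 and not at day 0. Epha4 read 83.0, 106 and 100.5 CPM in WT and 109, 136 and 150.2 CPM in KO at day 0. Later, at day 3, the values were 39.1, 32.7 and 76.98 CPM in WT and 13.2, 14.6 and 21.8 CPM in KO. Every KO library was above every WT library at day 0 (log2 fold change 0.43, adjusted p = 0.144) and below every one at day 3 (-1.55, SE 0.20, adjusted p = 0.000582). From day 0 to day 3 it fell by 1.04 in WT and by 3.02 in KO on the log2 scale. Epha2 at day 3 read 163, 141 and 74.4 CPM in WT and 40.1, 61.9 and 71.8 CPM in KO. The nearest libraries of its 2 groups were close together, and its call was lost without WT replicate 1, WT replicate 2 or KO replicate 1.

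Ephb4, the receptor of ephrin-B2 in arteriovenous patterning, changed sides between the days. It read 29.3, 30.7 and 37.7 CPM in WT against 21.5, 28.3 and 27.1 CPM in KO at day 0, and 66.4, 87.3 and 87.8 CPM in WT against 104, 109.6 and 117 CPM in KO at day 3. The groups did not overlap on either day, with log2 fold changes of -0.35 (SE 0.10, adjusted p = 0.0323) and 0.46 (SE 0.09, adjusted p = 0.00536), but in the 7 fits that left libraries out the day 0 call was lost in 5 and the day 3 call in 1. Epha8 did likewise at lower levels, with means of 3.78 CPM in WT and 1.60 CPM in KO at day 0 and 3.49 and 7.80 CPM at day 3. Its log2 fold changes were -1.25 (adjusted p = 0.0291) and 1.17 (adjusted p = 0.0199), and each call was lost in 5 of 7 fits that left libraries out. Epha10, a receptor without kinase activity, read 0.51 to 1.33 CPM in WT and 2.45 to 3.30 CPM in KO at day 3 (log2 fold change 1.63, adjusted p = 0.0352), and this call too was lost in 5 of 7 such fits. Ephb2 and Ephb3 were not called in any comparison, though both were called higher in KO at day 0 with the block within each day.

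Among the 8 ephrins, 2 were called lower in KO at day 0 and 4 at day 3, and none higher on either day. Efna5, a membrane-anchored A-type ephrin, read 3.06, 3.50 and 6.50 CPM in WT and 0.95, 0.94 and 1.07 CPM in KO at day 0. This was a log2 fold change of -2.10 (SE 0.25, adjusted p = 0.00056). Efna5 had risen by day 3 to 16.5, 21.6 and 20.8 CPM in WT and to 11.9, 13.5 and 13.4 CPM in KO. The gap had narrowed to -0.60 (adjusted p = 0.0433), a call that was lost in each of the 7 fits that left libraries out.

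Efnb2, a transmembrane ligand of Ephb4 and the most abundant ephrin per length, read 44.6, 53.9 and 88.9 CPM in WT and 25.9, 19.2 and 24.6 CPM in KO at day 0 (log2 fold change -1.38, SE 0.19, adjusted p = 0.00118). The day 3 values were 62.8, 84.3 and 94.1 CPM in WT and 75.0, 74.9 and 83.7 CPM in KO. The groups were apart at day 0 and overlapped at day 3 (log2 fold change -0.03, adjusted p = 0.913). At day 3 Efna3, Efnb1 and Efnb3 were called lower, with log2 fold changes of -1.43, -1.31 and -0.92, and 14.1% of the exon bases of Efna3 overlap a gene on the other strand. Without WT replicate 3, which had 23.8 CPM of Efnb1 against 8.81 and 8.04 CPM in the others, the calls of Efnb1 and Efnb3 were lost. Efna1, Efna3 and Efna4 lie together on chromosome 3 of GRCm38, between positions 89271733 and 89338028, and of these Efna3 was called at day 3. Efna1 had a log2 fold change of -1.01 (adjusted p = 0.0825) and Efna4 one of -0.39 (adjusted p = 0.186). Both were called with the replicate number blocked within each day.

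**Figure D3:**
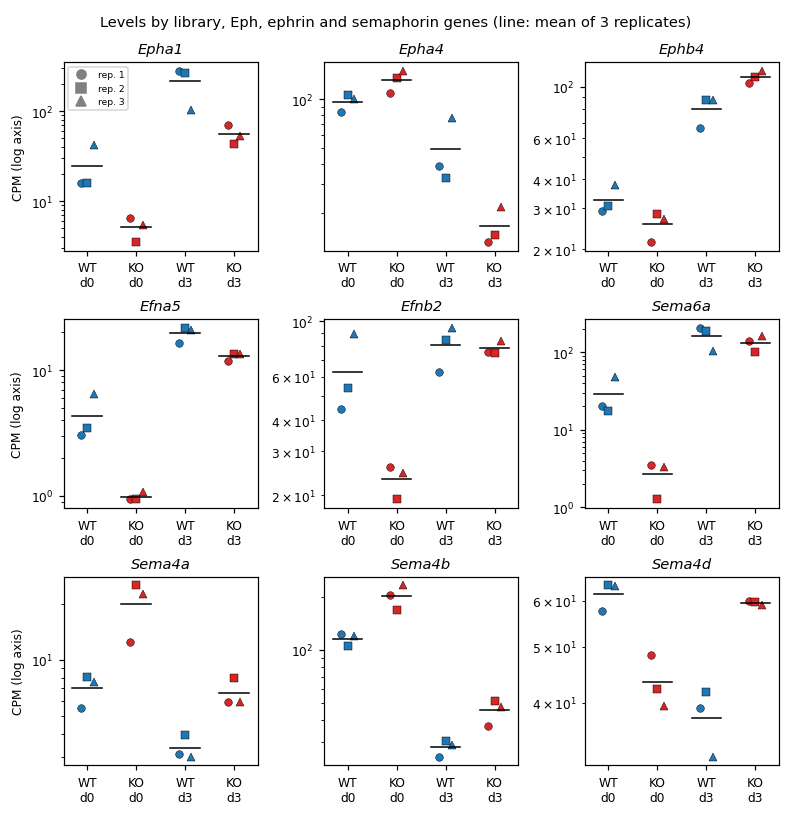
CPM on a log axis of 9 Eph, ephrin and semaphorin genes in WT (blue) and Meteor KO (red) libraries at days 0 and 3, with 1 symbol per replicate and a line at the mean. Sema6a and Efnb2 were lower in KO at day 0 and overlapped at day 3, Sema4a and Sema4b were higher in KO on both days, and Ephb4 and Sema4d changed sides.

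The 20 semaphorins were split in direction. At day 0, 3 were higher and 5 lower in KO, and at day 3 3 were higher and 7 lower. Sema6a, a transmembrane ligand of Plxna2 and Plxna4, had the largest difference of any tested member at day 0. It read 20.0, 17.7 and 47.8 CPM in WT and 3.47, 1.27 and 3.27 CPM in KO. The lowest WT library was above the highest KO library, and the log2 fold change was -3.39 (SE 0.46, adjusted p = 0.0011). Sema6a had risen by day 3 to 204, 185 and 102 CPM in WT and to 139.6, 99.9 and 159 CPM in KO, and these groups overlapped (log2 fold change -0.38, adjusted p = 0.459). Its increase over the 3 days was therefore 2.65 in WT and 5.65 in KO on the log2 scale.

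Sema6d, another transmembrane class 6 ligand, which binds Plxna1, showed the reverse timing. It read 1.58, 1.46 and 2.85 CPM in WT and 0.78, 1.71 and 1.58 CPM in KO at day 0, and these overlapped. By day 3 Sema6d reached 21.3, 16.7 and 50.4 CPM in WT and was at 1.05, 1.25 and 0.87 CPM in KO, a log2 fold change of -4.68 (SE 0.39, adjusted p = 7.27e-05). It rose in WT by 3.84, and in KO its change was -0.34 (adjusted p = 0.52). Sema6c was higher in KO at day 0, with 24.3, 33.7 and 34.0 CPM against 12.4, 12.1 and 12.8 CPM in WT (log2 fold change 1.29, adjusted p = 0.0011), and overlapped between genotypes at day 3.

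Sema4a and Sema4b, transmembrane ligands, were the members called higher in KO on both days in the main fit. Sema4b read 122.5, 105 and 120.1 CPM in WT and 206, 168.5 and 233 CPM in KO at day 0, and 24.7, 30.5 and 28.7 CPM in WT and 37.1, 51.6 and 47.7 CPM in KO at day 3. The groups did not overlap on either day, with log2 fold changes of 0.80 (SE 0.14, adjusted p = 0.00386) and 0.70 (SE 0.14, adjusted p = 0.00569). It fell over the 3 days by a like amount in WT (-2.05) and in KO (-2.16). Sema4a had means of 7.07 CPM in WT and 20.0 CPM in KO at day 0 and of 3.36 and 6.63 CPM at day 3, with log2 fold changes of 1.48 (adjusted p = 0.000913) and 0.97 (adjusted p = 0.00525). Sema4d, the ligand of Plxnb1, read 57.7, 63.8 and 63.7 CPM in WT and 48.4, 42.2 and 39.5 CPM in KO at day 0, then 39.2, 41.7 and 32.3 CPM in WT and 59.9, 59.7 and 59.1 CPM in KO at day 3. It fell in WT and rose in KO over the 3 days, and was the only member called so.

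Of the 7 secreted class 3 semaphorins, Sema3a, Sema3d and Sema3g were called lower in KO at day 3 and none was called higher. Sema3a, a repulsive ligand that binds Nrp1, read 1.87, 2.02 and 11.2 CPM in WT and 0.50, 0.34 and 0.71 CPM in KO. The log2 fold change of -3.05 (SE 0.73, adjusted p = 0.0115) became -1.93 (adjusted p = 0.0558) without WT replicate 3. At day 0 Sema3a read 0.49, 3.29 and 1.59 CPM in WT and 1.01, 4.02 and 2.09 CPM in KO. It was highest in replicate 2 of each genotype, as was the sum of the fibroblast genes. The part of feeder RNA in these day 0 values was not tested. Sema3g rested on 1, 0 and 4 reads in KO and exceeded 1 CPM only in WT replicate 3 of day 3. Sema3d missed the threshold in most fits that left a library out. Sema3e, the ligand of Plxnd1, read 44.1, 45.2 and 58.4 CPM in WT and 27.3, 9.37 and 12.6 CPM in KO at day 0 (log2 fold change -1.71, SE 0.30, adjusted p = 0.0038), and 23.4 CPM in WT and 23.5 CPM in KO on average at day 3. Sema3a, Sema3c, Sema3d and Sema3e lie on chromosome 5 between positions 12383385 and 17730268, and they did not move as a block: at day 3 Sema3c and Sema3e had log2 fold changes of 0.63 (adjusted p = 0.134) and 0.02.

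Sema5a and Sema7a completed the larger decreases. Sema5a was lower at both days, with 6.06, 4.33 and 8.35 CPM in WT against 2.41, 1.27 and 1.63 CPM in KO at day 0 and 32.2, 30.8 and 45.5 CPM against 13.3, 11.1 and 14.3 CPM at day 3. The ratio was similar on the 2 days, with log2 fold changes of -1.80 (SE 0.22) and -1.48 (SE 0.19). Sema7a, a membrane-anchored ligand of Plxnc1, read 6.02, 7.36 and 6.76 CPM in WT and 1.20, 1.65 and 2.25 CPM in KO at day 3, apart from each other (log2 fold change -2.03, SE 0.28, adjusted p = 0.000706).

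Of the 8 plexins tested, 2 were called higher and none lower in KO at day 0, and 1 higher and 4 lower at day 3. The 4 that were most abundant per length, Plxna1, Plxnb2, Plxnb1 and Plxna3, had log2 fold changes between -0.09 and 0.39 at day 3, and Plxna1 read 159, 189 and 179.7 CPM in WT and 157, 212 and 201 CPM in KO. Plxna2 read 12.2, 10.2 and 14.8 CPM in WT and 16.98, 12.1 and 13.6 CPM in KO at day 0. At the later day Plxna2 read 59.9, 65.9 and 106 CPM in WT and 7.95, 10.3 and 8.78 CPM in KO. It overlapped between genotypes at day 0 and was lower in every KO library at day 3, with a log2 fold change of -3.07 (SE 0.22, adjusted p = 3.77e-05). It rose by 2.63 in WT and fell by 0.65 in KO on the log2 scale, and the latter call was lost in 4 of 7 fits that left libraries out.

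Plxna4, a co-receptor partner of the neuropilins, read 3.82, 5.92 and 15.3 CPM in WT and 0.15, 0.17 and 0.21 CPM in KO at day 3, after 2.02, 2.82 and 3.33 CPM in WT and 1.06, 3.03 and 1.58 CPM in KO at day 0. Its log2 fold change at day 3 was -5.41 (SE 0.51, adjusted p = 0.000126), and without WT replicate 3 it was -4.74. Plxnd1, a plexin of endothelial cells, read 11.9, 16.0 and 57.8 CPM in WT and 3.90, 6.77 and 4.08 CPM in KO (log2 fold change -2.35, SE 0.53, adjusted p = 0.00887). Without WT replicate 3 the value was -1.45, and without KO replicate 3 the call was lost (adjusted p = 0.0602). The summed level of 5 endothelial genes was 87.9 to 225 CPM in WT and 20.8 to 36.5 CPM in KO at day 3. Flt1 made up most of the WT sum (129.54 CPM on average, against 9.05 CPM in KO). Cdh5 read 2.8, 2.07 and 39.44 CPM in WT, and Tie1 and Tek were also highest in replicate 3 (16.96 and 22.01 CPM). Flt1, Cdh5 and Tie1 were called lower in KO, and Pecam1 and Tek were not called. Tek in WT replicates 1 and 2 (2.84 and 2.02 CPM) was below every KO library. The part of endothelial RNA in the Plxna4 and Plxnd1 results was not tested. At day 0 Plxnb2 and Plxna1 were called higher in KO, by 0.60 (adjusted p = 0.00443) and 0.29 (adjusted p = 0.0419). The Plxna1 groups overlapped, and its call was lost in 6 of 7 fits that left libraries out.

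Both neuropilins fell over the 3 days in KO cells and were far lower than in WT at day 3. Nrp1 (chromosome 8, positions 128358604 to 128503363) read 5.92, 6.02 and 137 CPM in WT and 0.50, 0.23 and 0.67 CPM in KO, which is 10, 4 and 16 reads in the KO libraries. The lowest WT library was above the highest KO library, but replicate 3 stood far above the other WT libraries. The log2 fold change was -6.08 (SE 1.18, adjusted p = 0.00411), and without WT replicate 3 it was -3.86 (SE 0.62, adjusted p = 0.00268). At day 0 Nrp1 read 2.13, 12.4 and 7.29 CPM in WT and 4.71, 14.8 and 12.4 CPM in KO, highest in replicate 2 of each genotype, as was the sum of the fibroblast genes. The part of feeder RNA in these day 0 levels was not tested.

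Nrp2 (chromosome 1, positions 62703285 to 62818695) was lower in KO on both days. It read 45.6, 36.2 and 57.2 CPM in WT and 12.8, 9.04 and 14.96 CPM in KO at day 0, and 24.7, 37.3 and 118 CPM in WT and 1.5, 1.82 and 2.0 CPM in KO at day 3. The groups were apart on both days and the ratio was wider on the later one. The log2 fold change was -1.92 (SE 0.34, adjusted p = 0.00409) at day 0 and -4.91 (SE 0.42, adjusted p = 7.34e-05) at day 3, or -4.25 without WT replicate 3. In WT neither neuropilin was called between the days (2.00 for Nrp1, adjusted p = 0.092, and 0.17 for Nrp2), while in KO Nrp1 fell by 4.69 and Nrp2 by 2.81 on the log2 scale (adjusted p = 0.00633 and 0.00025). Nrp1 was called over time in WT with the replicate number blocked within each day.

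**Figure D4:**
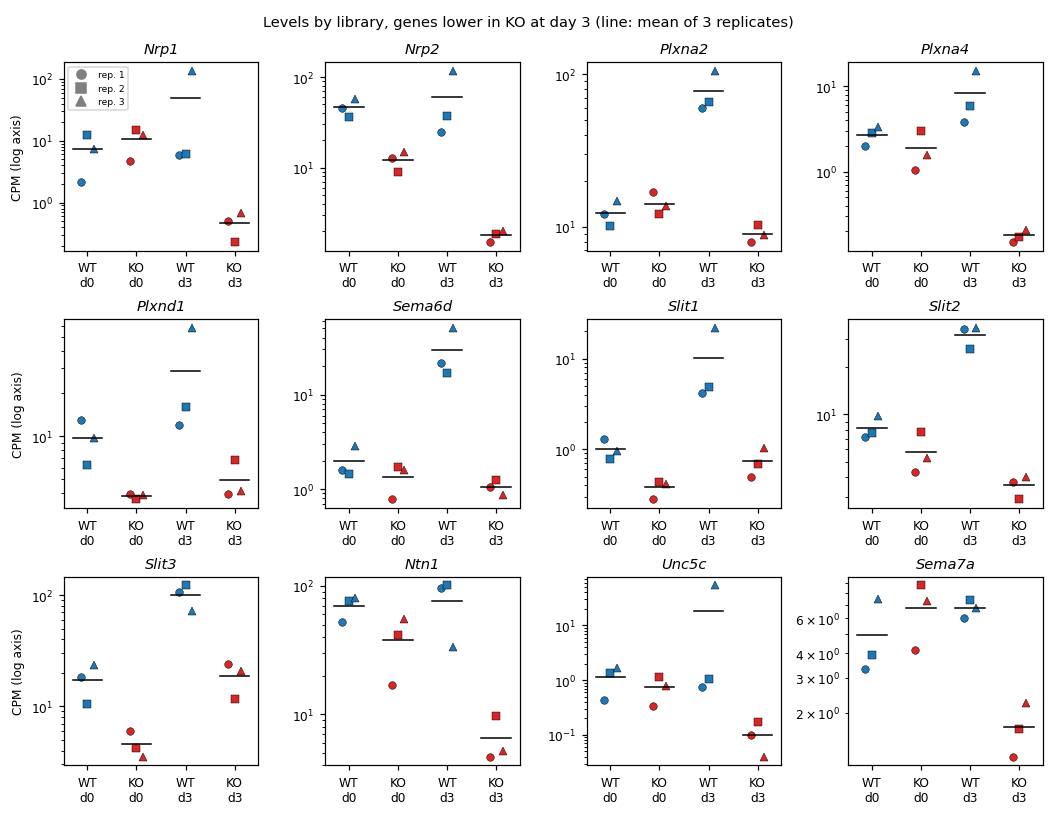
CPM on a log axis of 12 guidance genes called lower in KO at day 3, in WT (blue) and Meteor KO (red) libraries at days 0 and 3, with 1 symbol per replicate and a line at the mean. Every KO library was below every WT library at day 3, and WT replicate 3 (triangle) stood above the other WT libraries for Nrp1 (137 CPM) and Unc5c (53.8 CPM).

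All 3 Slits were lower in KO at day 3, and all 3 rose over the 3 days in WT. Slit2 read 34.5, 25.9 and 35.1 CPM in WT and 3.75, 2.90 and 4.0 CPM in KO at day 3, after 7.15, 7.67 and 9.72 CPM in WT and 4.31, 7.77 and 5.31 CPM in KO at day 0. The genotypes overlapped at day 0 and were well apart at day 3, with a log2 fold change of -3.16 (SE 0.25, adjusted p = 5.14e-05). With the replicate number blocked within each day, Slit2 was called lower in KO at day 0 too. Slit2 rose in WT by 1.96 and fell in KO by 0.71 on the log2 scale, the latter call being lost in 4 of 7 fits that left libraries out. Slit3, the most abundant Slit, read 18.3, 10.5 and 23.4 CPM in WT and 6.05, 4.24 and 3.52 CPM in KO at day 0, and 107, 122 and 71.8 CPM in WT and 24.2, 11.8 and 20.6 CPM in KO at day 3. It rose in both genotypes and stayed apart between them, by -1.91 (adjusted p = 0.00412) at day 0 and -2.47 (adjusted p = 0.000532) at day 3. Slit1 read 4.20, 4.86 and 21.7 CPM in WT and 0.50, 0.68 and 1.04 CPM in KO at day 3 (log2 fold change -3.56, SE 0.50, adjusted p = 0.000808), or -2.68 without WT replicate 3.

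No Robo receptor was called between genotypes at day 0, where the count at an unadjusted p below 0.05 was 1 (Robo4, also called with the block within each day), and 2 of 4 were called lower at day 3. Robo1, the most abundant per length, was not called in any comparison, except over time in WT with that block, and read 52.1, 55.8 and 122 CPM in WT and 57.2, 51.6 and 87.0 CPM in KO at day 3. Robo2 and Robo3 were called lower at day 3 (log2 fold change -2.93 and -2.76, adjusted p = 0.0107 and 0.0229), at low levels. Robo3, which alters Slit responses in commissural neurons, read 1.91, 1.64 and 16.9 CPM in WT and 0.40, 0.85 and 1.08 CPM in KO, and without WT replicate 3 its fold change was -1.12 (adjusted p = 0.107). Without that library Robo2 no longer passed the filter on low values. Robo4, an endothelial Robo, lies next to Robo3 on chromosome 9 (positions 37401897 to 37415115, with Robo3 from 37415669 to 37433246). It fell in both genotypes, by 1.49 in WT and 3.55 in KO on the log2 scale, and its log2 fold change at day 3 was -1.07 (adjusted p = 0.0636).

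Ntn1, the founding netrin of vertebrates, read 52.8, 76.7 and 80.3 CPM in WT and 16.8, 41.1 and 55.3 CPM in KO at day 0, which overlapped. Each KO library was below the WT library of its number, and with the block within each day Ntn1 was called lower. The day 3 values of Ntn1 were 95.8, 101 and 33.3 CPM in WT and 4.65, 9.61 and 5.12 CPM in KO. Here replicate 3 was the lowest WT library and still above every KO library, and the log2 fold change was -3.64 (SE 0.50, adjusted p = 0.000716) with it and -4.11 without it. The change of Ntn1 over the 3 days was 0.16 in WT (adjusted p = 0.775), and it fell by 2.56 in KO (adjusted p = 0.00138). Ntn4, a laminin-related netrin, had means of 1.80 CPM in WT and 0.47 CPM in KO at day 3 (log2 fold change -1.91, adjusted p = 0.0218), and its call was lost in 4 of 7 fits that left libraries out.

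Of the 6 genes with the Unc5 prefix, 1 was called lower at day 0 and 2 at day 3. Unc5b read 36.9, 51.0 and 77.4 CPM in WT and 23.5, 35.6 and 42.6 CPM in KO at day 0, which overlapped although each KO library was below the WT library of its number (log2 fold change -0.68, SE 0.15, adjusted p = 0.0111). Unc5b had risen by day 3 to 156, 162 and 189.6 CPM in WT and to 184, 202 and 221 CPM in KO (log2 fold change 0.26, adjusted p = 0.207). With the block within each day Unc5b was called at day 3. Unc5c had the largest fitted decrease at day 3, -6.60 (SE 1.58, adjusted p = 0.0114), but its size rested on 1 library, as WT read 0.75, 1.06 and 53.8 CPM and KO 0.10, 0.17 and 0.04 CPM. Without WT replicate 3 the value was -3.28 (adjusted p = 0.00604), and without KO replicate 3 the call was lost (adjusted p = 0.113). Unc5d read 0.84 to 1.33 CPM in WT and 0.06 to 0.20 CPM in KO at day 3, which is 4, 1 and 3 reads in KO. Its log2 fold change of -3.04 (SE 0.53, adjusted p = 0.00243) held in every fit that left libraries out. Those fits cannot lift a limit of the filter, which Unc5d passed only through WT day 3, the group where it was high. Unc5a, Unc5cl and Unc50 were not called between genotypes on either day, except Unc50 at day 3 with the block within each day.

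WT replicate 3 at day 3 bore on these results as a whole. Of the 63 members above 1 CPM in at least 1 WT day 3 library, 13 were over 2 times higher in replicate 3 than in the higher of the other libraries. Beside those named above they included Ephb1, Nrp2, Robo1, Robo2, Sema6d and Slit1. Another 2, Epha1 and Ntn1, were below 0.5 times the lower of the others. Without it 30 members were called at day 3, 6 higher and 24 lower. The calls lost were those of Efna5, Efnb1, Efnb3, Epha8, Plxnb1, Plxnc1, Robo2, Robo3, Sema3a and Sema3g, and those gained Sema5b and Sema6a. Without KO replicate 3 at day 3, 24 members were called, 6 higher and 18 lower. The shares of all tested genes called in these fits are not given here.

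Over the 3 days, 40 members changed in WT, 32 up and 8 down, or 62.5% of those tested against 56.2% of all tested genes (30.7% up and 25.5% down). Of these calls 32 were over 2-fold, against 27.5% of all tested genes. In KO 44 changed, 26 up and 18 down, or 68.8% against 56.6% of all tested genes (29.4% up and 27.2% down), and 31 of the calls were over 2-fold, against 28.9% of all. The median log2 change of the members was 1.0 in WT and 0.11 in KO, against 0.07 and 0.03 over all tested genes. The largest increases in WT were those of Sema6d (3.84), Efna1 (3.26), Epha1 (3.16) and Slit1 (3.00), and the largest decreases those of Sema4b (-2.05) and Robo4 (-1.49). The increases in KO were largest for Sema6a (5.65), Efna5 (3.71), Epha1 (3.43) and Ephb1 (3.41), and the decreases for Nrp1 (-4.69), Robo4 (-3.55), Plxna4 (-3.39) and Epha4 (-3.02).

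Grouped by course, 22 members rose in both genotypes, among them 3 B-type Eph receptors, 5 ephrins and Unc5a and Unc5b. Another 6 fell in both, namely Epha4, Robo4, Sema4a, Sema4b, Sema4f and Sema5b. Plxna2, Plxna4, Sema6c and Slit2 rose in WT and fell in KO, the falls of Plxna2 and Slit2 being the less stable ones described above. Of the calls over time, 30 of 40 in WT and 33 of 44 in KO held in every fit that left libraries out. A further 8 fell in KO and were not called in WT, namely Efnb1, Epha2, Nrp1, Nrp2, Ntn1, Sema3a, Sema7a and Unc5cl. Of these, Nrp1 and Sema3a were called in WT with the replicate number blocked within each day. Whether the change over time itself differed between genotypes was tested as an interaction, and 25 members passed, 16 with a lower and 9 with a higher value in KO, or 39.1% of those tested against 15.5% of all tested genes (8.21% higher and 7.34% lower). Of these, 21 were over 2-fold in size, against 9.53% of all. With the replicate number blocked within each day there were 38, against 31.2% of all tested genes. The lower ones were led by Nrp1 (-6.69, adjusted p = 0.0139), Plxna4 (-4.87, adjusted p = 0.00176), Sema6d (-4.18, adjusted p = 0.00164), Sema3a (-3.52, adjusted p = 0.0374) and Plxna2 (-3.28, adjusted p = 0.000418), and the higher ones by Sema6a (3.00, adjusted p = 0.0086). The Nrp1 and Sema3a interactions were among those lost without KO replicate 3 at day 3, with adjusted p = 0.0704 and 0.118. In the 13 fits that left libraries out, the Sema3a interaction was lost in 9 and that of Nrp1 in 3.

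**Figure D5:**
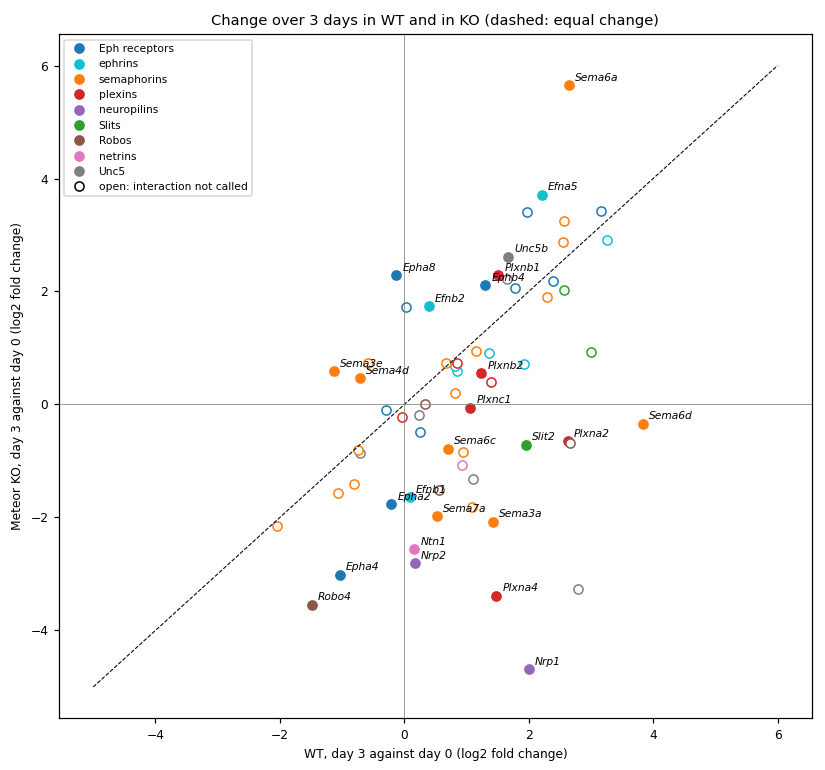
Log2 fold change from day 0 to day 3 in WT (horizontal axis) and in Meteor KO (vertical axis) for the 64 tested guidance genes, coloured by family, with a dashed line of equal change and filled, named symbols where the interaction was called. Nrp1 (2.00 in WT, -4.69 in KO) and Plxna4 (1.48, -3.39) lay far below the line and Sema6a (2.65, 5.65) above it.

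Eomes encodes a T-box factor, so the promoters of the members were searched on both strands for the T-box core letters AGGTGTGA and for the shorter GGTGTGA, which the longer one contains. RefSeq windows of GRCm38.p6, from 250 bases before to 50 bases after a gene's start, were at hand for 60 of the 69 members. The longer motif was found for 1 member, Sema4a (1.67% of those with a window, against 1.48% of all 27025 genes). The shorter one was found for 4, Efna1, Nrp2, Sema4a and Sema6c (6.67% against 4.60%). These shares were near those of all genes, and the 4 genes did not move alike. At day 3 Nrp2 was lower in KO, Sema4a higher, and Efna1 and Sema6c were not called in the main fit. The windows around the match are shown for Nrp2, on chr1:62703067-62703156, and Sema6c, on chr3:95164089-95164178, both on the plus strand, as examples of a member that fell in KO and of one that rose in WT and fell in KO. A gene can have several RefSeq windows, and their starts need not be the gene ends given above. That of Sema6c belongs to a start inside the annotated gene. Capitals mark the match, which begins 239 bases before the RefSeq start of its window for Nrp2 and, on the opposite strand, 214 bases before that for Sema6c.
Nrp2: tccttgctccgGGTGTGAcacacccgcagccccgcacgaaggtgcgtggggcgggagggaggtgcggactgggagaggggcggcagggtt
Sema6c: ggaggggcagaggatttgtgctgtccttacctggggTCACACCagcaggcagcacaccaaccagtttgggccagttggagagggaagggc

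Of 48 further genes of the guidance pathways, all tested, 12 were called between genotypes at day 0 (4 higher, 8 lower) and 17 at day 3 (4 higher, 13 lower), or 25.0% and 35.4% of them, closer to the shares of all tested genes than the members were. The netrin receptor Neo1 was abundant in every group, at 65.9 to 79.7 CPM in WT and 83.4 to 95.7 CPM in KO at day 0 and 97.4 to 120.3 and 122 to 151 CPM at day 3. Dcc, also a netrin receptor, read at most 1.05 CPM. Nrcam, an adhesion molecule that partners neuropilins, was lower in KO on both days (log2 fold change -2.43 and -2.49, adjusted p = 0.0127 and 0.00424). L1cam, its relative, was lower at day 3 (-1.77, adjusted p = 0.00066), and so was Farp1, which links class 6 semaphorin receptors to Rac (-1.88, adjusted p = 0.000128). Flrt3, a ligand of Unc5 receptors, read 17.5, 13.4 and 45.0 CPM in WT and 4.60, 4.72 and 4.25 CPM in KO at day 3 (-2.39, SE 0.37, adjusted p = 0.00127). Of the collapsin response mediators, which act downstream of Sema3a, Crmp1 was the most abundant per length and was lower in KO at day 0 (means of 87.8 CPM in WT and 42.2 CPM in KO, -1.05, adjusted p = 0.0195) but not at day 3 (99.2 and 154 CPM, 0.62, adjusted p = 0.0912), with an interaction of 1.67 (adjusted p = 0.0141). Of the others, Dpysl2 and Dpysl5 were lower at day 0 (-1.59 and -1.39), and Dpysl5 (-0.63) and Dpysl4 (-1.57) at day 3. Trio, an exchange factor downstream of netrin receptors, was higher in KO at day 3 (1.17, adjusted p = 0.000434).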

How the data were processed

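Per the labels, the authors used cutadapt 1.3 for trimming, STAR 2.4.2a for alignment (build GRCm38) and HTSeq 0.6.1 for counting per Ensembl gene. The deposited values are these raw counts, 1 table per sample, with 17455927 to 23910943 reads each. Whether the counting used strand is not given in the sources used here, so reads of overlapping genes on opposite strands may be mixed (14.1% of the exon bases of Efna3, 10.7% of Plxna1, 10.5% of Efna4, 7.3% or less of other tested members).

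Symbols and exon lengths came from GENCODE M21. All 4 groups were fitted together in edgeR 4.0.16 (R 4.3.3) with TMM scaling and the replicate number as a block, in place of the batch factor of the study's methods, and contrasts were tested with the quasi-likelihood test and Benjamini-Hochberg adjustment. Alternatives used DESeq2 1.42.0, limma 3.58.1 (voom), other blocks, scalings and filters, and left libraries out. The fit was tested on simulated counts with changes planted in KO day 3 only. They held no replicate or day effect, so that test cannot bear on the choice of block.

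Same-numbered libraries of a day deviated together from their group means (correlation 0.327 to 0.703 over 6 pairs), those of different days did not (mean -0.059). No replicates agreed within sampling noise. No label says that replicates were separate cultures, so p-values measure the spread between these samples, which may be technical.

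The members and lists were chosen with earlier results of these data known. Named with values were up to 15 called members per direction between genotypes and 10 between days that moved alike in all 3 same-numbered pairs, up to 10 for the interaction, the most abundant of each family, and up to 6 cofactors per comparison. Other members given values were chosen after these were seen.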

Additional observations from a re-analysis of the deposited data

Results flagged for a closer look

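Results were singled out here where the effect of the KO differed between day 0 and day 3 by the interaction term of edgeR's quasi-likelihood test, given as the log2 difference between genotypes at day 3 minus that at day 0. In 16 members the value was negative. Among receptors it was -6.69 for Nrp1, -4.87 for Plxna4, -3.28 for Plxna2, -2.99 for Nrp2, -2.06 for Robo4, -1.98 for Epha4, -1.56 for Epha2, -1.12 for Plxnc1 and -0.69 for Plxnb2. Among ligands it was -4.18 for Sema6d, -3.52 for Sema3a, -2.72 for Ntn1, -2.67 for Slit2, -2.50 for Sema7a, -1.74 for Efnb1 and -1.48 for Sema6c.

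In 9 members the value was positive. Among ligands it was 3.00 for Sema6a, 1.73 for Sema3e, 1.5 for Efna5, 1.35 for Efnb2 and 1.18 for Sema4d. Among receptors it was 2.43 for Epha8, 0.94 for Unc5b, 0.81 for Ephb4 and 0.78 for Plxnb1. For Sema6a, Sema3e, Efnb2 and Unc5b the genotypes differed at day 0 and were not called at day 3. Unc5b was called at day 3 with the replicate number blocked within each day. For Epha8, Ephb4 and Sema4d both days were called, with opposite signs. In the fits that left libraries out, 10 of the 25 calls held each time: Epha4, Nrp2, Plxna2, Plxna4, Sema4d, Sema6a, Sema6c, Sema6d, Sema7a and Slit2.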

How the results depend on the processing

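Counts of called members in the 5 comparisons were recomputed under each alternative, and no called member named here changed direction in any of them. At day 0, 32 members were called with the replicate block within each day, 34 in a fit of the 6 samples of that day, 12 with a minimum of 1 on the log2 scale and 10 without replicate 3 in any group. The block within each day also gave 47 at day 3, 50 over time in WT, 53 over time in KO and 38 for the interaction. At day 0 and for the interaction it called a larger share of all tested genes as well, as given above. Its larger counts there are thus not particular to the members. For the other counts in this paragraph the shares of all tested genes are not given. Without any replicate block the counts were 16 at day 0, 35 at day 3, 41 and 43 over time in WT and KO, and 22 for the interaction, all within 1.5 times the main values, and those of the further pathway genes 10, 15, 28, 32 and 8. Leaving libraries out gave 10 to 20 members at day 0, 21 to 30 at day 3 (24 without KO replicate 3 and 21 without replicate 3 in any group), 34 to 41 over time in WT, 37 to 42 in KO, and 12 to 27 for the interaction (12 without replicate 3 in any group). In these fits fewer samples entered. The cause of the other shifts was not tested. Calls held in every such fit for 9 of 19 members at day 0 and 17 of 38 at day 3. With DESeq2, limma-voom, RLE size factors and the filters on low counts the counts stayed within 1.5 times the main ones. At this depth, members below about 1 CPM rest on few reads, and their fold changes are uncertain.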

Other observations

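Members too low to be tested read as follows. The highest CPM in any library was 0.58 for Epha3, 0.57 for Epha5, 0.29 for Epha6, 0.60 for Ntn5 and 0.45 for Plxnb3. Of the exon bases of Ntn5, 23.4% overlap Sec1 on the other strand.

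Of the 64 tested members, 6 were not called in any of the 5 comparisons: Ephb2, Ephb3, Robo1, Sema3c, Sema4g and Unc50. With the replicate number blocked within each day each of them gained a call: Ephb2, Ephb3 and Sema4g between genotypes at day 0, Ephb3, Sema4g and Unc50 at day 3, Robo1 over time in WT and Sema3c over time in KO. Ephb2 had means of 24.8 CPM in WT and 37.6 CPM in KO at day 0 (log2 fold change 0.60, adjusted p = 0.0564 in edgeR's quasi-likelihood test), and its groups did not overlap.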
